A study of Homo sapiens with 4 samples.

Results

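CERS3, CYP4F22, ALOX12B, ALOXE3, ABCA12, ELOVL4 and UGCG encode enzymes and a transporter that make, move and modify the ceramides of the epithelial water barrier. The 7 genes were chosen by pathway with their log2 differences between exposed and control arrays, and between the controls, already known, so those values describe the genes and are no test of them. They are 7 of 18417 genes that had a probe set of their own. RNA came from monolayers of MCF12A, a cell line from human breast epithelium that does not form tumours; the medium of all 4 cultures held cholera toxin, hydrocortisone, insulin, horse serum and epidermal growth factor. One culture was exposed to 25 mM ethanol for 1 week and was set against its own unexposed culture (control 1), and one was exposed to 2.5 mM acetaldehyde, the first oxidation product of ethanol, for 1 week and was set against its own unexposed culture (control 2). Each of the 4 cultures gave 1 Affymetrix Human Gene 1.0 ST array, so no difference below has a replicate check and none was tested.

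In stratified epithelia, ELOVL4 lengthens fatty acids to the ultra-long chains found in barrier ceramides, CYP4F22 adds a hydroxyl group to the far end of the chain, and CERS3 joins the chain to a sphingoid base. UGCG caps ceramide with glucose, and ABCA12 loads the glucosylceramide into lamellar granules for secretion. ALOX12B and then ALOXE3 oxidise the linoleate carried by the secreted ceramide, a step before the lipid is bound to the cornified envelope. Inherited loss of CERS3, CYP4F22, ALOX12B, ALOXE3 or ABCA12 causes ichthyosis, a defect of the skin barrier.

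All values are RMA intensities on a linear scale, and differences are log2 differences between an exposed array and the control of the same experiment. The intensity medians over 33297 probe sets were 90.2 with ethanol, against 92.2 in control 1, and 113 with acetaldehyde, against 114 in control 2. Sorted log2 values of ethanol and control 1 lay 0.0398 apart on average and those of acetaldehyde and control 2 lay 0.0268 apart, whereas arrays from different experiments were 0.270 to 0.285 apart. The experiments thus appear to have been normalized separately, and any level set across them carries that difference. A gene was kept for counting where at least 1 of its 4 values was at least 155, the median intensity of the probe sets that name 1 gene, which left 10373 genes. All 7 barrier ceramide genes were kept, but CERS3, CYP4F22 and ALOXE3 passed only through control 1, so their place among kept genes supports nothing. The cells carried their labelled epithelial identity, since the 7 basal markers with a probe set of their own were at or above that intensity on every array, including keratin KRT5 at 9757 with ethanol, against 11172 in control 1, and at 10366 with acetaldehyde, against 12169 in control 2. The leukocyte marker PTPRC lay between 10.3 and 15.9 on the 4 arrays, and 9 of 12 markers of non-epithelial cells were not kept. Among 8 luminal breast markers, ESR1 and ELF5 were not kept.

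With ethanol, all 7 genes were below control 1, as were 42.2% of all kept genes. CERS3, CYP4F22, ALOX12B and ELOVL4 (4 of the 7) were at least 2-fold lower. The median difference of the 7 genes was -1.42, against 0.05 over all kept genes. Of all kept genes 2.11% passed the same threshold, a share given as background only, because this contrast was known when the genes were chosen. With acetaldehyde, 6 of the 7 genes were below control 2, none of them by 2-fold, and 49.3% of all kept genes were below it. The median difference was -0.43, against 0.00 over all kept genes, of which 0.212% were at least 2-fold lower. In bulk RNA, fewer cells that make these transcripts and less transcript per cell cannot be told apart.

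**Figure D1:**
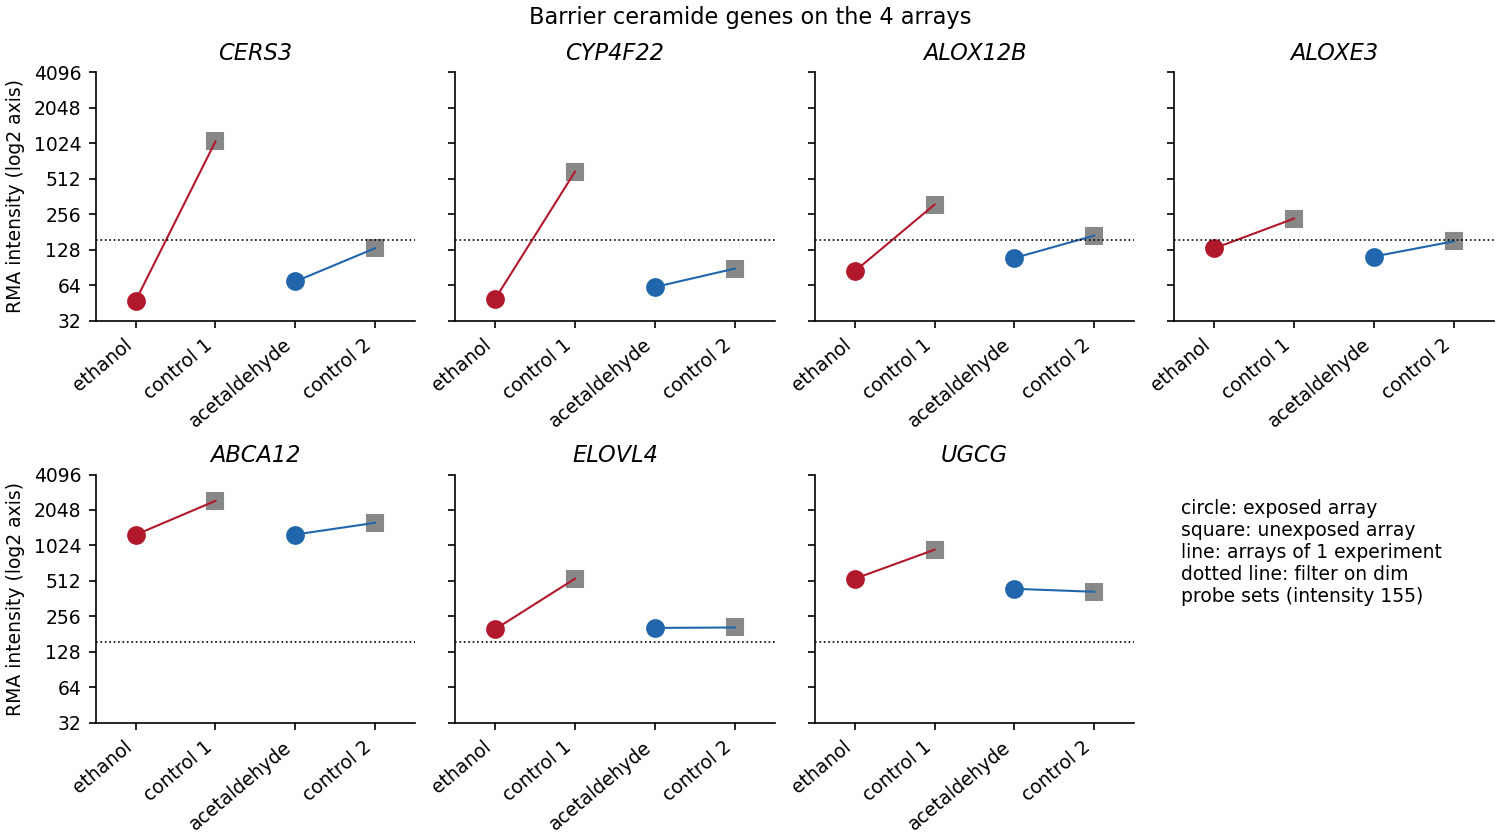
Each panel plots the RMA intensity (log2 axis) of 1 barrier ceramide gene on the 4 arrays, 1 point per array, with a line joining the arrays of 1 experiment and a dotted line at the filter intensity of 155. Control 1 is the highest array in all 7 panels, and levels are not to be compared between panels because probe sets differ.

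The promoter windows of the genes are given for the 3 genes furthest below control 1 with ethanol and for ALOXE3, which held the only matches to an AP-1 motif. RefSeq start sites (GRCh38.p14) gave 13 windows for the 7 genes, each cut here to 250 bases before and 30 after a start site. Capitals mark matches on either strand to the GC box (GGGCGG) or, in ALOXE3, to the AP-1 motif (TGANTCA), and no matches overlap in the windows shown.
CERS3 (chr15:100544654-100544933, minus strand): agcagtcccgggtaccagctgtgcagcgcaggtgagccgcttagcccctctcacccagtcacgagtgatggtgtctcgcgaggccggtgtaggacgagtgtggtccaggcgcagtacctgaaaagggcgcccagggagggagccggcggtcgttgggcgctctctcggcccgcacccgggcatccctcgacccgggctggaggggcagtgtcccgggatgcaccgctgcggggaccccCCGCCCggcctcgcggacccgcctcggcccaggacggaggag
CYP4F22 (chr19:15508275-15508554, plus strand): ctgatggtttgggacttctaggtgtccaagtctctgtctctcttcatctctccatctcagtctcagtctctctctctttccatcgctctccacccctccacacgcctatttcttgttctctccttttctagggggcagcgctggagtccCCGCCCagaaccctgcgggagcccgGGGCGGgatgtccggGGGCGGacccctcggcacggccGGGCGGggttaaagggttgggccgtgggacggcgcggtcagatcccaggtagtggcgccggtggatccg
ALOX12B (chr17:8087687-8087966, minus strand): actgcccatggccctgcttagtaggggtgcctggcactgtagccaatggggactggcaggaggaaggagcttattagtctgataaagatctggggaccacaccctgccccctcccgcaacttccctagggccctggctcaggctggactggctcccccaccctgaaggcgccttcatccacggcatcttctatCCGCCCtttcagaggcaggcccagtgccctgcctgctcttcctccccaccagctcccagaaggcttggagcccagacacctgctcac
ALOXE3 (chr17:8118485-8118764, minus strand): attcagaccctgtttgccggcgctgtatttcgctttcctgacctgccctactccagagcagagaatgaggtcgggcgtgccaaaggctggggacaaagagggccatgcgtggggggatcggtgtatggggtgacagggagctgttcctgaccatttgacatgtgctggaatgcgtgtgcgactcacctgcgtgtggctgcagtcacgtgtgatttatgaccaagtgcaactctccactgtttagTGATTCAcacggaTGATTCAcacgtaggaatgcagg

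A GC box was found in 7 of the 13 windows, those of 6 of the 7 genes, against 44.1% of 35116 windows of all genes. The AP-1 motif was found in 2 of 13 windows, against 7.35% of all windows. Both windows belong to ALOXE3, overlap each other and hold the same pair of matches. The first bases of the matches lie at -6 and 8 from the start site of the window shown. In every match the free base N was T, and a stricter form of the motif was not searched. The TATA box (TATAAA) was found in 1 window, of ABCA12, against 11.2% of all windows, and the grainyhead core (ACCGGTT) in 0 of 13, against 0.703%. CERS3 had 4 windows, of which 3 near one another held 72.5% to 77.5% G and C and one further into the gene 47.1%, against a median of 58.2% over all windows. These counts describe letters in the windows and not binding.

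The synthase and the hydroxylase that build the omega-hydroxyceramide had the widest differences of the group with ethanol. CERS3 (probe set 7991546), the ceramide synthase for ultra-long chains, read 47.2 with ethanol, against 1063 in control 1, and 68.9 with acetaldehyde, against 132 in control 2. Only control 1 was bright, and the lowest value was that of the ethanol array. The log2 difference was -4.49 with ethanol, a 22.5-fold lower intensity that 4 of 10373 kept genes reached or passed (CERS3 included), and -0.94 with acetaldehyde, where 0.260% of kept genes were as low or lower. Because CERS3 was kept only through control 1, these places among kept genes support nothing. Within its array CERS3 stood at percentile 34.7 of probe sets with ethanol, against 90.2 in control 1, and at 36.8 with acetaldehyde, against 54.0 in control 2.

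CYP4F22 (probe set 8026424), the fatty acid omega-hydroxylase, followed the same order of arrays in intensity. By percentile within the array CYP4F22 stood at 35.5 with ethanol and 33.9 with acetaldehyde, the reverse order of the exposed arrays. Its intensity was 49.0 with ethanol, against 588 in control 1, and 61.8 with acetaldehyde, against 88.5 in control 2. Here too control 1 was the one array above the filter intensity. The values were 12.0-fold lower with ethanol (log2 difference -3.59) and 1.43-fold lower with acetaldehyde (-0.52). Both genes were under the filter intensity on the other 3 arrays, and an offset of 32 added before taking logs shortened the ethanol differences to -3.79 for CERS3 and -2.94 for CYP4F22.

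ELOVL4 (probe set 8127767, chromosome 6), the elongase that supplies the chains, differed with ethanol and was almost level with acetaldehyde. It read 200 with ethanol, against 536 in control 1, and 205 with acetaldehyde, against 207 in control 2. Control 1 stood above the other arrays, which lay in a narrow band. The difference was -1.42 with ethanol (2.68-fold lower) and -0.01 with acetaldehyde, where 46.2% of kept genes were as low or lower.

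The 2 lipoxygenases lie next to each other on chromosome 17 among the genes measured and differed by unequal amounts. ALOX12B (probe set 8012309), the first of the pair to act, read 83.9 with ethanol, against 309 in control 1, and 109 with acetaldehyde, against 169 in control 2. Both exposed arrays lay below both controls. It was 3.68-fold lower with ethanol (log2 difference -1.88) and 1.55-fold lower with acetaldehyde (-0.63). ALOXE3 (probe set 8012326), the hydroperoxide isomerase that follows it, read 131 with ethanol, against 235 in control 1, and 112 with acetaldehyde, against 151 in control 2. It was 1.79-fold lower with ethanol (-0.84) and 1.35-fold lower with acetaldehyde (-0.43), and control 1 was again its only array above the filter intensity. The genes on either side of the pair were not lower with ethanol: ALOX15B, another lipoxygenase, was at 0.21, and the transcription factor HES7 was at 0.00. With acetaldehyde ALOX15B was at -0.41, near ALOXE3, and HES7 was at -0.0035.

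The transporter and the glucosylating enzyme were well above the filter intensity on every array and within 2-fold of their own control with either exposure. ABCA12 (probe set 8058708, chromosome 2), the lamellar granule transporter, read 1261 with ethanol, against 2449 in control 1, and 1268 with acetaldehyde, against 1595 in control 2. The exposed arrays were nearly level with each other and below both controls. Its difference was -0.96 with ethanol (1.94-fold lower) and -0.33 with acetaldehyde. UGCG (probe set 8157216, chromosome 9), the glucosylceramide synthase used by cells of many tissues, read 534 with ethanol, against 944 in control 1, and 440 with acetaldehyde, against 415 in control 2. Its ethanol value lay between the 2 controls, and it was the single gene of the group above its own control with acetaldehyde. The differences were -0.82 with ethanol (1.77-fold lower) and 0.08 with acetaldehyde.

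**Figure D2:**
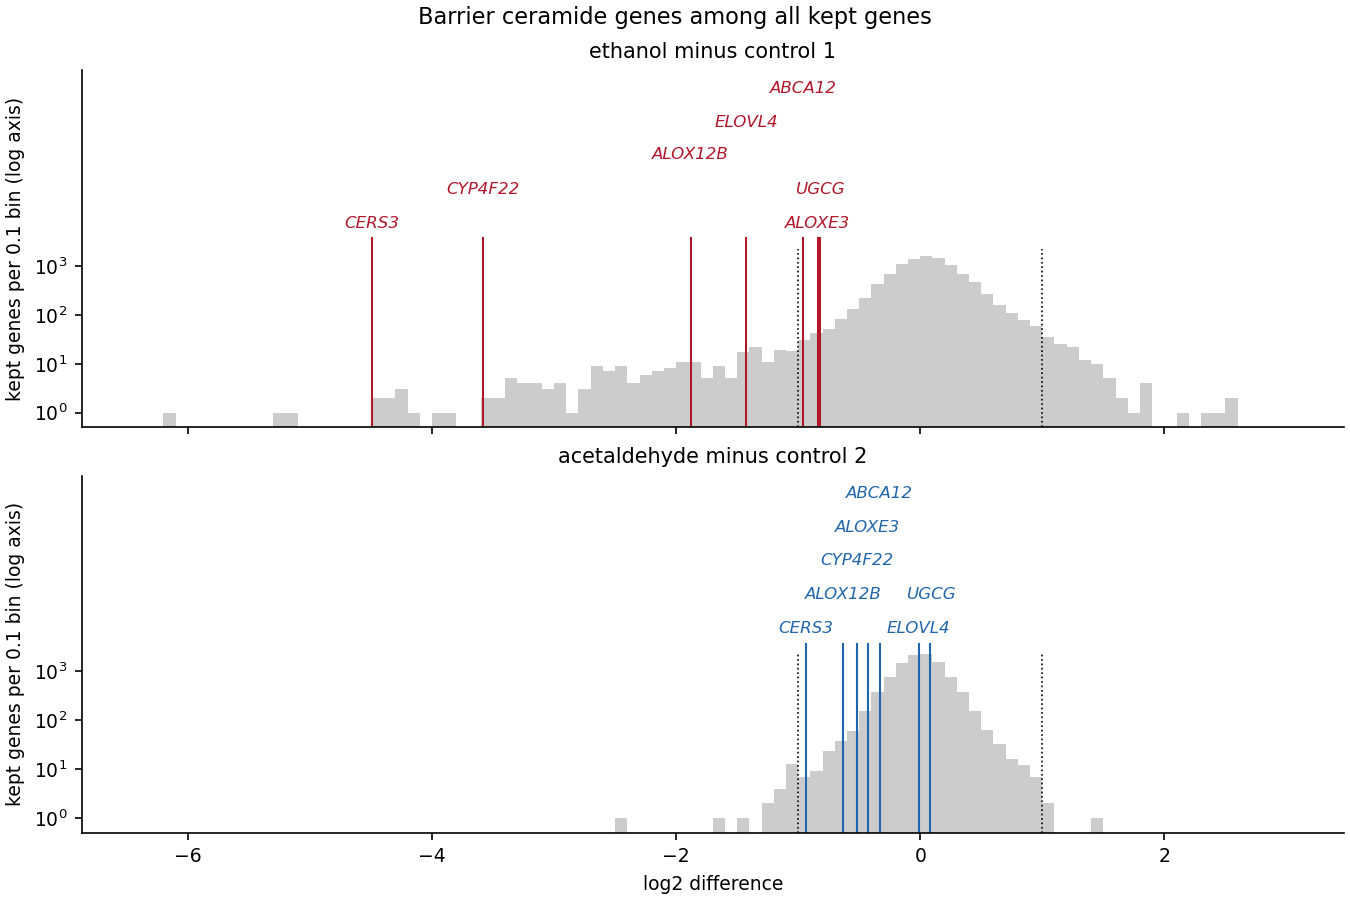
Grey bars count the 10373 kept genes in bins of 0.1 log2 units (log axis) for ethanol minus control 1 (upper panel) and acetaldehyde minus control 2 (lower panel); coloured lines mark the 7 barrier ceramide genes and dotted lines a 2-fold difference. CERS3 (-4.49) and CYP4F22 (-3.59) lie in the far lower tail with ethanol, whereas with acetaldehyde the group spans -0.94 to 0.08. CERS3 and CYP4F22 were kept only through control 1, so their place in the tail supports nothing.

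The 2 unexposed cultures also differed in these genes. Control 2 was below control 1 for all 7, as it was for 45.5% of kept genes. The median log2 difference of the 7 was -1.19, against 0.06 over all kept genes. CERS3 (8.05-fold lower), CYP4F22 (6.64-fold), ELOVL4 (2.59-fold) and UGCG (2.28-fold) were at least 2-fold lower in control 2, whereas ALOX12B was at -0.87, ALOXE3 at -0.64 and ABCA12 at -0.62. Over all kept genes 4.85% were at least 2-fold lower in control 2 than in control 1. These values cross 2 normalizations, and after quantile normalization of all 4 arrays together the same median was -1.14, with CERS3 at -3.13 and UGCG at -1.14. On those values 5 genes of the 7 passed 2-fold with ethanol (2.18% of kept genes), 0 with acetaldehyde (0.244%) and 5 in control 2 (5.37%). That joint scaling moved the median of all kept genes by less than 0.1, to 0.00 against 0.06 as deposited; without the filter on dim genes the median of all 18417 genes before it was 0.22.

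Control 1 was thus the highest of the 4 arrays for 7 of 7 barrier ceramide genes, as it was for 19.8% of kept genes, and it enters every ethanol difference above. For CERS3, CYP4F22 and ALOXE3, kept only through control 1, that place was fixed by the filter. The difference between the controls was also known when the genes were chosen, so the count supports nothing. Set against control 2 instead, ethanol was at least 2-fold lower for CERS3 (-1.48) and ALOX12B (-1.01), 2 of 7 against 3.86% of kept genes. It was within 2-fold for CYP4F22 (-0.85), ABCA12 (-0.34), ALOXE3 (-0.20) and ELOVL4 (-0.05), and higher for UGCG (0.37). These differences cross 2 normalizations and were not repeated after joint quantile normalization, and ALOX12B lay close to the threshold. The ethanol array was below both controls for 6 of the 7 genes, against 28.1% of kept genes, and the acetaldehyde array was below both controls for 6 of 7, against 24.9%. On these intensities UGCG was the exception in both. The counts cross 2 normalizations. By percentile within the array, ethanol was above control 2 also for ELOVL4 (65.7 against 64.7) and ALOXE3 (57.9 against 57.3). Set against control 1, acetaldehyde was at least 2-fold lower for 6 of 7 genes, ABCA12 (-0.95) being the exception, against 5% of kept genes. At a 1.5-fold threshold the counts were 7 of 7 with ethanol (4.22% of kept genes), 2 of 7 with acetaldehyde (0.974%) and 7 of 7 for control 2 minus control 1 (12.9%). The part of control 1 in the ethanol differences was not tested.

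**Figure D3:**
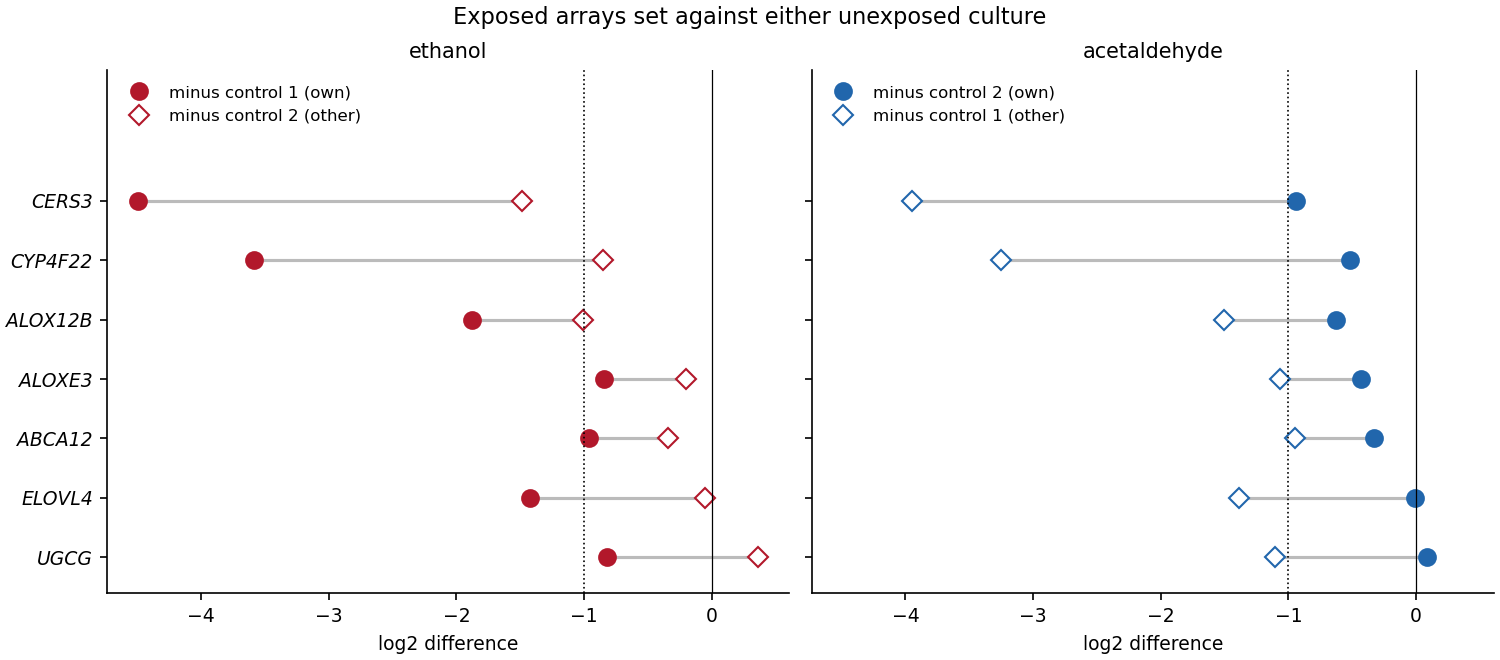
For each barrier ceramide gene, filled circles give the log2 difference of the exposed array from its own control and open diamonds the difference from the control of the other experiment, with ethanol on the left and acetaldehyde on the right; the dotted line marks 2-fold lower. With ethanol 4 genes pass that line against control 1 and 2 against control 2, and with acetaldehyde 0 pass it against control 2 and 6 against control 1. Differences from the other control cross 2 normalizations, and ALOX12B (-1.01) lies close to the line with ethanol against control 2.

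Ethanol and acetaldehyde were given at different doses, 25 mM and 2.5 mM, so their values stand side by side and no comparison of the compounds is made. Across the 7 genes the 2 sets of differences, which share no array, ordered the genes with a Spearman rho of 0.82 and a Pearson r of 0.75, given as a description of 7 points from the same 4 arrays; over all kept genes the values were 0.35 and 0.39.

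The rest of the pathway was read from lists. Of the core ceramide synthesis list (17 genes, 13 kept), 1 was 2-fold or more below control 1 with ethanol (2.11% of kept genes). None was higher by 2-fold, and the median was 0.15. The gene below control 1 was SPTSSB, a small subunit of serine palmitoyltransferase. It was at 29.9 with ethanol, against 276 in control 1, and at 41.6 with acetaldehyde, against 48.3 in control 2. SPTSSB was kept only through control 1. The other ceramide synthases measured, CERS2 (0.23), CERS4 (-0.18), CERS5 (0.43) and CERS6 (0.26), all lay within 2-fold of control 1, against -4.49 for CERS3. The largest positive difference was that of KDSR, the ketosphinganine reductase, at 0.52. With acetaldehyde the list had a median of 0.02, which turned to -0.02 after joint quantile normalization, between CERS4 at -0.47 and ORMDL1, a regulator of the first step, at 0.43.

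Among the fatty acid elongation genes (12 listed, 9 kept) 0 were 2-fold from control 1 with ethanol, and the median was 0.05, or -0.03 after joint quantile normalization. ELOVL7 was lowest at -0.68 and HACD3, a dehydratase of the elongation cycle, highest at 0.34, whereas ELOVL4 was at -1.42. With acetaldehyde these genes ran from TECR, the reductase that ends the cycle, at -0.41 to HACD3 at 0.11. The elongases ELOVL1 and ELOVL5 were at -0.13 and 0.26 with ethanol.

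Of 8 genes of the later lipid envelope steps 5 were kept, and 3 of these were at least 2-fold lower with ethanol, against 2.11% of kept genes. The median of the 5 was -2.22, and ABHD5 (-0.43) and NIPAL4 (-0.65) were below control 1 by less than 2-fold. Over all 8 measured genes, kept or not, the median was -1.02 and 4 were at least 2-fold lower. TGM1, the transglutaminase of the envelope, read 311 with ethanol, against 2416 in control 1, and 218 with acetaldehyde, against 434 in control 2. SDR9C7, a dehydrogenase that acts after the lipoxygenases, read 88.6 with ethanol, against 541 in control 1, and 90.9 with acetaldehyde, against 77.4 in control 2, and was kept only through control 1. The cholesterol sulfotransferase SULT2B1 was at -2.22 with ethanol and -0.11 with acetaldehyde. With acetaldehyde the lowest was TGM1 at -0.99, SDR9C7 was highest at 0.23, and NIPAL4, an ichthyosis gene, read 420, against 783 in control 2 (-0.90). In control 2, TGM1 (-2.48), SDR9C7 (-2.80), SULT2B1 (-1.92) and ABHD5 (-1.48) were also lower than in control 1, and NIPAL4 was higher (0.60).

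Of the glucosylceramide and sphingomyelin turnover list (17 genes, 15 kept), 2 lay 2-fold or more below control 1 with ethanol, against 2.11% of kept genes. In the other direction 1 was at least 2-fold higher, as were 1.17% of all kept genes, and the median was 0.17. The alkaline ceramidase ACER1 was at 63.8 with ethanol, against 413 in control 1, the one array through which it was kept, and GLTP, a glycolipid transfer protein, at 561, against 2862. ST3GAL5, which adds sialic acid to lactosylceramide, was 560 with ethanol, against 266 in control 1, at 1.08, and 0.96 after joint quantile normalization. UGCG itself stood at -0.82. With acetaldehyde the list ran from GLTP at -0.35 to ACER3 at 0.36, with a median of 0.04 that turned to -0.0022 after that normalization.

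**Figure D4:**
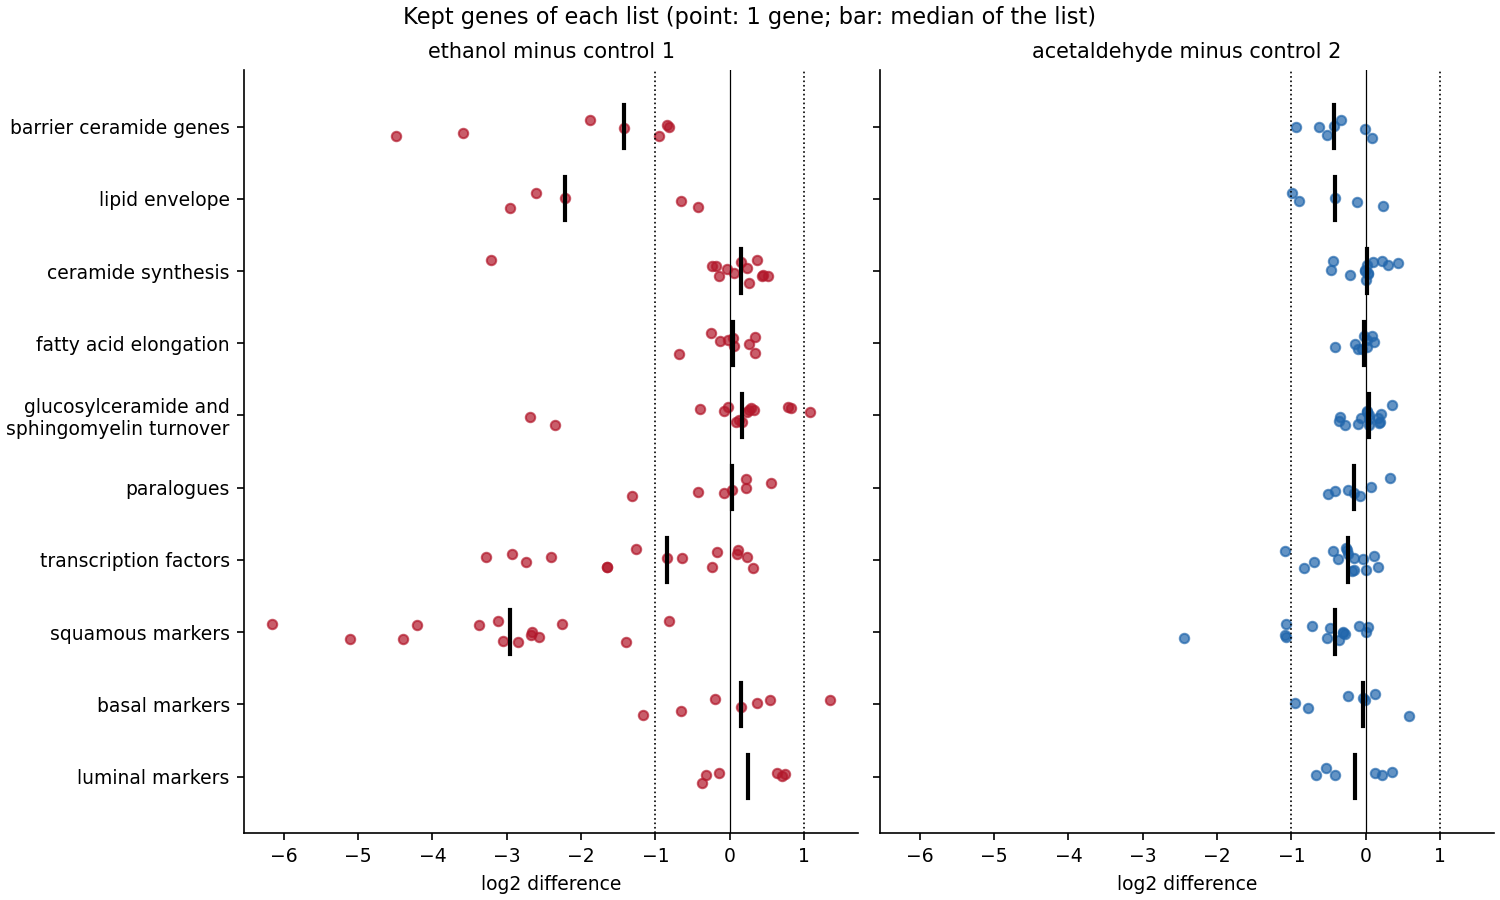
Each point is 1 kept gene of a list and each black bar the median of its list, for ethanol minus control 1 on the left and acetaldehyde minus control 2 on the right (log2 differences, dotted lines at 2-fold). With ethanol the barrier ceramide genes (median -1.42), the lipid envelope genes (-2.22) and the squamous markers (-2.95) lie below the core ceramide synthesis (0.15) and elongation genes (0.05). Over all 8 measured lipid envelope genes, kept or not, the median is -1.02.

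Among close relatives of the 7 genes, of 7 kept paralogues 1 was at least 2-fold lower with ethanol (2.11% of kept genes) and the median was 0.03. That gene was CYP4F3, a neighbour of CYP4F22 in the same cluster, at 159 with ethanol, against 396 in control 1, and 227 with acetaldehyde, against 322 in control 2. CYP4F sequences are alike and probe sets of this cluster may share signal, so its value is uncertain. Among CYP4F genes that were not kept, CYP4F2 (-1.11) and CYP4F12 (-1.01) were also at least 2-fold lower with ethanol, whereas CYP4F8 was at 0.06. CYP4F11 was highest at 0.55 with ethanol, and ABCA1 at 0.32 with acetaldehyde. The 3 nearest measured genes on either side of each of the 7 were looked at after the values were seen, leaving out the 7 themselves. Of 19 kept neighbours 2 were at least 2-fold lower with ethanol, against 2.11% of kept genes, and the median was 0.19. The 2 were CYP4F3 and SH3BGRL2 next to ELOVL4 (-1.19).

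Of 15 kept transcription factors of epithelial differentiation and lipid sensing, 7 were at least 2-fold lower with ethanol, against 2.11% of kept genes. Another 8 were within 2-fold and 4 of these were higher, with a median of -0.84 over the 15. The 7 were EHF (-3.28), ZNF750 (-2.93), GRHL1 (-2.75), GRHL2 (-2.41), OVOL1 (-1.66), GRHL3 (-1.65) and PRDM1 (-1.27), of which GRHL2 was kept only through control 1. Between the unexposed cultures 6 of the 15 were at least 2-fold lower in control 2, against 4.85% of kept genes. The median of the 15 was -0.85, and -0.82 after joint quantile normalization. Ethanol set against control 2 had 3 of 15, against 3.86% of kept genes, with a median of -0.43. ZNF750, a zinc finger factor of terminal epidermal differentiation, was the one factor at least 2-fold lower with acetaldehyde, at 465, against 988 in control 2. Of all kept genes 0.212% passed that threshold with acetaldehyde. PPARD, a lipid-sensing receptor, was at -0.84 with ethanol and -0.15 with acetaldehyde, and CEBPB was highest with ethanol at 0.31 and PPARG with acetaldehyde at 0.17.

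Markers of squamous differentiation were counted in the same way. Of 14 kept markers of 15, 14 were below control 1 with ethanol (42.2% of kept genes) and 13 of them at least 2-fold lower (2.11%), with a median of -2.95. With acetaldehyde 12 were below control 2 (49.3% of kept genes) and 4 at least 2-fold lower (0.212%), with a median of -0.42. The summed intensity of all 15 was 2770 with ethanol, against 31943 in control 1, and 3877 with acetaldehyde, against 7840 in control 2. KRT10 was 18.4-fold lower with ethanol and 5.42-fold lower with acetaldehyde, while FLG (filaggrin), kept only through control 1, was at -2.85 with ethanol and 0.04 with acetaldehyde. Between the unexposed cultures 12 of the 14 were at least 2-fold lower in control 2 (4.85% of kept genes), with a median of -2.30 (-2.35 after joint quantile normalization). The other 2, KRT1 (1.29) and KRT10 (0.28), were higher in control 2 than in control 1. Set against control 2, ethanol had 5 of 14 at least 2-fold lower (3.86% of kept genes) and a median of -0.70, from KRT10 at -4.48 to KLK7 at 1.42. The part of squamous differentiation in the values of the 7 genes was not tested. Basal markers had a median of 0.14 with ethanol, from DSG3 at -1.16 to LAMB3 at 1.35, and of -0.04 with acetaldehyde, from KRT14 at -0.95 to LAMB3 at 0.59. Luminal markers had a median of 0.24 with ethanol, from MUC1 at -0.38 to KRT8 at 0.75, and of -0.14 with acetaldehyde, from MUC1 at -0.67 to EPCAM at 0.35. In control 2, KRT14 (-1.68), DSG3 (-1.23), EPCAM (-1.21) and MUC1 (-1.13) were at least 2-fold lower than in control 1. The summed intensity of the 12 non-epithelial markers was 827 with ethanol, against 943 in control 1, and 1310 with acetaldehyde, against 1391 in control 2. The 3 kept ones were higher in control 2 than in control 1, COL1A1 by 0.57, DES by 0.54 and the fibroblast marker DCN by 2.34 (1.99 after joint quantile normalization). DES and DCN passed the filter only through the acetaldehyde array and control 2, so their direction was fixed by the filter. COL3A1, not kept, was at 0.16 between the controls, and at -0.13 after joint quantile normalization. DCN read 34.6 with ethanol, against 34.8 in control 1, and 187 with acetaldehyde, against 177 in control 2. The part of these cell type markers in the differences of the 7 genes between the controls was not tested.

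The kept genes nearest to CERS3 over the 2 matched differences were SPRR1B, an envelope precursor that is also on the squamous list, at a distance of 0.17 (-4.40 with ethanol and -1.08 with acetaldehyde), the calcium-binding protein CALB1 at 0.37 and the actin-binding protein POF1B at 0.44. Nearest to ALOX12B were the calgranulin S100A8 at 0.10, SLURP1, a secreted epidermal protein, at 0.11 and the envelope protein periplakin (PPL) at 0.16. The nearest to ABCA12 were TAGLN, LY6D and COBL, within 0.05, and the nearest to UGCG were USP6NL, SNORA60 and GCNT4, within 0.05. With 2 differences per gene, likeness rests on 2 values.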

How the data were processed

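Total RNA of 4 MCF12A cultures was read on Affymetrix Human Gene 1.0 ST arrays, and each group and its matched control were taken from the sample labels. Deposited values are linear intensity values, 1 for each probe set on each array, made by the authors with RMA per the submitters' processing notes, which give no software or version. Ethanol and control 1 shared the same value at 77 probe sets, acetaldehyde and control 2 at 38, and arrays of different experiments at 0 or 1.

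Log2 of the values was taken with no offset. Of 33297 probe sets, 19460 were named for 1 gene by the platform annotation, 1754 for several and 12083 not at all; for 19429 the gene identifier matched RefSeq (GRCh38.p14), which changed 0 symbols. For the 769 genes with several probe sets the brightest on average was used, and each of the 7 genes had 1. With 1 array per group no test was run, differences at or past 2-fold were counted, and no read depth exists, so the number of arrays limits the precision. The genes and lists were chosen with earlier results of these data known. Named list genes are those at least 2-fold from their own control and the largest difference in each direction. The other ceramide synthases, elongases, paralogues, markers, neighbours, NIPAL4, ABHD5, PPARD and the promoter motifs were chosen after their values were seen. Listed genes without a probe set of their own (such as SPTLC3, CERS1 and HACD1) are not analysed here. The counting steps were tested on simulated data. Python 3.11.15, numpy 2.4.6, pandas 2.3.3 and matplotlib 3.10.9 were used.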

Additional observations from a re-analysis of the deposited data

How the results depend on the processing

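The alternatives were no filter on dim genes, quantile normalization of all 4 arrays together, the mean of a gene's probe sets, an offset of 32 before log2, the control of the other experiment and a 1.5-fold threshold. For ethanol the count of 4 genes at least 2-fold lower was 7 at 1.5-fold and 2 against control 2, where the median difference of -1.42 became -0.34. For acetaldehyde the count of 0 was 2 at 1.5-fold and 6 against control 1, where the median of -0.43 became -1.39. For control 2 minus control 1 the count of 4 was 7 at 1.5-fold. Values against the other control cross 2 normalizations, and the cause of the changes with it was not tested. Joint quantile normalization gave 5 genes at least 2-fold lower with ethanol (ABCA12 added) and 5 between the controls, and all 14 single-gene differences kept their sign. The filter, probe set and offset alternatives could not change a sign. Each of the 7 genes was kept and had 1 probe set, and an offset keeps the order of the values. UGCG changed sign with the control, to 0.37 with ethanol against control 2 and to -1.10 with acetaldehyde against control 1. No paired analysis was possible because each group held 1 array, and leaving out arrays, a scan block and another background correction could not be run. Values under the filter intensity on 3 arrays limit the folds of CERS3 and CYP4F22.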

Other observations

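The 7 kept of 20 paralogues held larger differences between the unexposed cultures (median log2 difference 0.89) than with either exposure (0.03 with ethanol and -0.16 with acetaldehyde). Over all 20 measured, kept or not, the median between the unexposed cultures was 0.47, against 0.22 over all 18417 genes. The 0.47 crosses 2 normalizations and was not repeated after joint quantile normalization, where the 7 kept had a median of 0.82. The paralogues not kept then ran from CYP4F12 at -1.70 to ABCA10 at 0.47. Between them, ALOX15 was at -0.26 (0.10 as deposited) and ABCA3 at 0.02 (0.27 as deposited). ALOX5 and ABCA7 passed the filter only through control 2, and ABCA1 only through acetaldehyde. ALOX15B, a lipoxygenase whose gene neighbours ALOX12B, read 4210 in control 2, against 988 in control 1, and it read 3172 with acetaldehyde and 1146 with ethanol. ABCA2, a lipid transporter, read 613 in control 2, against 175 in control 1. ABCA1, the cholesterol exporter, read 124 in control 2, against 55.9 in control 1, both under the filter intensity. These 3 genes ran opposite to the 7 barrier ceramide genes between the controls, and the comparison crosses 2 normalizations; after joint quantile normalization the log2 differences were 2.13 for ALOX15B, 1.78 for ABCA2 and 0.82 for ABCA1.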
